A study of Mus musculus with 444 samples.

Results

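Mature hormone-sensing luminal cells were the 111 cells, of 444 profiled and 323 retained, in which markers of the mature luminal lineage outnumbered those of the other epithelial lineages. They were chosen by measured values. For each cell, the genes at 50 CPM or more (read pairs scaled to a common library total) were counted in 3 lists of 8 genes, and a cell became a member if its mature number was at least 3 and higher than both its basal and its progenitor number. The mature list held Prlr, Ly6d, Ly6a, Cited1, Prom1, Foxa1, Esr1 and Areg. Of the members, 82 came from the 171 retained pubertal cells and 29 from the 152 retained adult cells. The basal and progenitor classes were chosen by the same rule with their own lists. The basal class held 54 of the 89 other pubertal cells and 101 of the 123 other adult cells, and the progenitor class 16 and 12.

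The libraries came from sorted mammary epithelial cells of female FVB/NJ mice, an inbred strain without any engineered allele, at puberty (5 weeks of age) and in adulthood (10 weeks). No treatment was given. Glands of 6 pubertal or 4 adult mice were pooled for each sort, over 3 experiments, and no label ties a cell to an animal, a sort or a capture run, so each stage stood as 1 sample of many cells and no difference below has a replicate check. Cells were caught on the Fluidigm C1, a microfluidic chip whose capture sites favour cells of a set size. The pubertal members had a median of 310552 read pairs (quartiles 237152 and 644216) and the adult members 351125 (252912 and 556231). All levels below are sums of cells thinned to 100000 read pairs each, so that 1 read pair in 1 cell equals 10 CPM. Intervals are at the 95% level and cover counting error only.

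Hormone-sensing cells are the part of the luminal layer that carries receptors for estrogen, progesterone and prolactin. They respond to ovarian and pituitary hormones and pass the signal to neighbouring cells through secreted factors such as amphiregulin, Wnt ligands and RANKL. The other luminal cells, which include the progenitors that give rise to milk-secreting cells, carry few receptors for estrogen and progesterone. The basal layer is contractile.

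Members made up 48.0% of the retained pubertal cells (interval 40.3 to 55.7%) and 19.1% of the retained adult cells (13.2 to 26.2%). The adult share was not even across the cell numbers in the labels. It was 10.3% (11 of 107, interval 5.24 to 17.7%) among the cells numbered 48 to 188 and 40.0% (18 of 45, 25.7 to 55.7%) among the other adult cells. Read pairs of Rn7sk, a small nuclear RNA, were present in 96.3% of the retained cells of the first set and in 8.89% of the others. The meaning of the numbers is not given in the labels. The set numbered 48 to 188 held 11 of the 29 adult members but 96 of the 123 other adult cells. In adult ratios over both sets, class and set therefore cannot be fully told apart. Values of both sets are set out for some genes and lists only. Both shares also rested on the Ly6 genes, 2 similar members of a gene cluster: without Ly6a and Ly6d in the list, 38.0% of pubertal and 11.2% of adult cells were members.

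Members varied in their distance from the threshold. The mature number was 3 in 14 members, 4 in 23, 5 in 31, 6 in 28, 7 in 13 and 8 in 2, with a median of 5 at both stages. No basal gene reached the level in 79 members and no progenitor gene in 71. The lead over the next list was 1 gene in 15 members, of which 9 were pubertal and 6 were among the 11 adult members numbered 48 to 188. Just outside the rule lay 4 pubertal cells with 2 mature genes as their highest number and 8 cells in which 3 or more mature genes were tied with another list. A further 44 cells had 3 or more mature genes but more genes of another list. Among the members themselves, 23 carried 3 or more genes of another list, of which 17 were pubertal and 6 adult, all 6 from the set numbered 48 to 188. The study inspected captured cells under the microscope, and no doublet caller was run here, so the part of cell pairs in these mixed profiles was not tested.

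**Figure D1:**
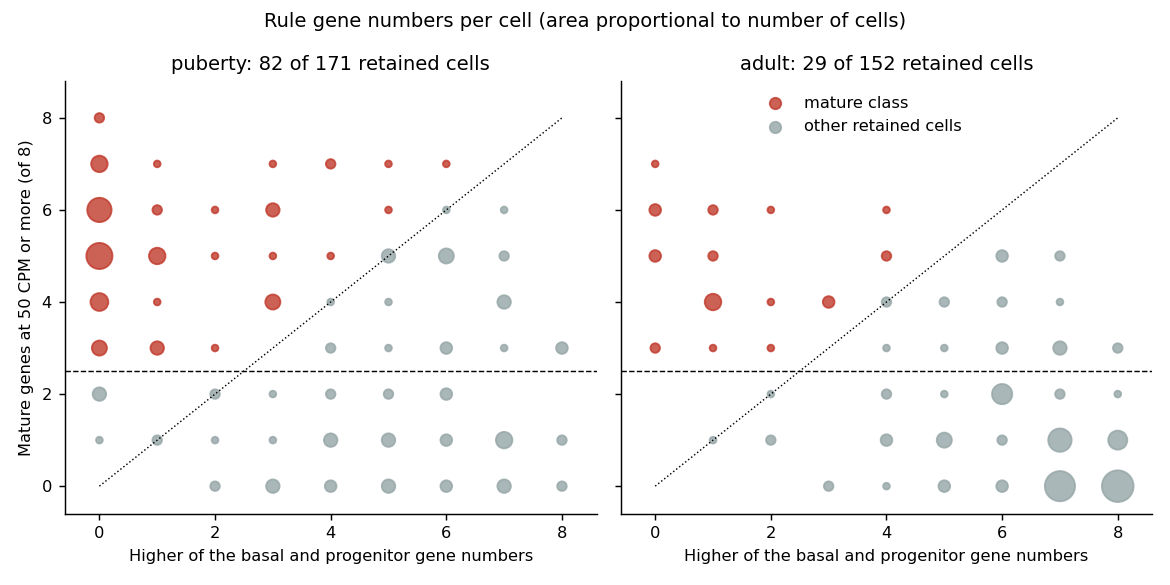
Number of mature genes at 50 CPM or more (vertical axis, of 8) against the higher of the basal and progenitor numbers (horizontal axis) in every retained cell, with the area of a circle proportional to the number of cells. Members (red) lie above the dotted line of equality and the dashed threshold, most of them at 0 or 1 on the horizontal axis, and cells with 7 or 8 basal or progenitor genes are more frequent among the adult cells.

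The 8 chosen genes were unevenly shared among the members. Prlr, the prolactin receptor, reached 50 CPM in 82 of 82 pubertal and 29 of 29 adult members. Areg, which encodes the epidermal growth factor receptor ligand amphiregulin, did so in 86.6% and 72.4%, and Cited1, a transcriptional co-regulator of estrogen receptor activity, in 85.4% and 62.1%. The surface proteins encoded by Ly6d and Ly6a were at this level in 74.4% and 75.6% of pubertal members and each in 75.9% of adult members. The pioneer factor gene Foxa1 was there in 50.0% and 34.5%, Prom1 in 25.6% and 27.6%, and the estrogen receptor gene Esr1 in 24.4% and 20.7%. Prlr, Areg, Cited1 and the Ly6 genes were thus each at the level in most members, and Prom1 and Esr1 in a minority. Prom1, which encodes a membrane protein used to sort estrogen receptor positive cells, was at this level in 0 of 11 adult members numbered 48 to 188 and in 8 of the other 18.

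The levels of Prlr and Esr1 describe the members only, since both genes served to choose them and the contrast with the other classes is set by the rule. Prlr read pairs were present in every member, at 70 to 18940 CPM per pubertal cell (median 3285) and 70 to 33190 CPM per adult cell (median 8520). The summed level was 3599 CPM in pubertal members against 1215 CPM in the other pubertal cells, and 10173 against 1051 CPM in the adult. Read pairs of this receptor were also found in 72.2% of basal class cells at puberty and in 70.3% of them in the adult, at 1400 and 1098 CPM in sum. Free RNA, cell pairs and low expression cannot be told apart there. In the progenitor class Prlr reached 50 CPM in 10 of 16 pubertal and 7 of 12 adult cells. Esr1 read pairs were found in 48.8% of pubertal members, beside 18.5% of basal and 0 of 16 progenitor cells, and in 41.4% of adult members, beside 15.8% of basal cells.

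The genomic position of Prlr is chr15:10177238-10349190 and that of Foxa1 chr12:57540628-57548029 in GRCm38.p6, the assembly of the mm10 build. Of the mature genes of the rule, 6 had 12 promoter entries in RefSeq, and in these 2 genes the 7 letters bound by forkhead factors, TGTTTAC on either strand, occurred in 1 entry each. The 250 bases before those start sites are shown because Foxa1 encodes a forkhead factor and Prlr marked every member, with the match in capitals. They are chr15:10223656-10223905, plus strand, for Prlr, and chr12:57546112-57546361, minus strand, for Foxa1. Both windows lie inside the gene spans given above, before start sites within the genes. The Prlr entry directly before the gene start, chr15:10176988-10177237, had 0 matches.
Prlr: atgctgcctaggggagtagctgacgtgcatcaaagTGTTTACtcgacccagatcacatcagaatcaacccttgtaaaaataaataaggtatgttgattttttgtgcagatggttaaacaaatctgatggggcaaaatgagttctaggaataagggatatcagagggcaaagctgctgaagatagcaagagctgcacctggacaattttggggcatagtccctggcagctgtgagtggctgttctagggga
Foxa1: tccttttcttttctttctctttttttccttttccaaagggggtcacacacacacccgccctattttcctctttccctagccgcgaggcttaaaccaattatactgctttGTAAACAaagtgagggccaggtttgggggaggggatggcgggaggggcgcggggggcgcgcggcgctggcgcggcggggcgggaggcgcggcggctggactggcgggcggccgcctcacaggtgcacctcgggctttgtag
The motif was found in 3.65% of all 32851 promoter entries of 300 bases, in none of the 14 entries of 12 independent mature markers and in none of the 13 entries of 10 genes named below as higher in members. The match is a description of the letters in these windows.

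Markers of the hormone-sensing lineage that the rule did not use were for the most part higher in members at both stages. They are called independent because they lie outside the rule. The list was chosen with earlier results of these data known, so it describes the members and is no outside check of the label. Of 14 such genes, 10 reached 20 CPM in members or in the other cells at puberty, and 9 of these were at least 2-fold higher in members, with a median log2 ratio of 1.97. In the adult 11 reached the level and 10 were at least 2-fold higher, with a median of 2.65. With the genes below the level included, the medians of the 14 were 1.72 and 2.60. Over all genes considered, 20.8% were at least 2-fold higher in members at puberty and 25.7% in the adult, with medians of 0.02 and -0.16. The summed level of the 14 genes per cell ran from 10 to 28240 CPM in pubertal members (median 7490) and from 0 to 27870 CPM in the other pubertal cells (median 1500). It ran from 170 to 30510 CPM in adult members (median 14570) and from 0 to 17490 CPM in the other adult cells (median 990). The ranges overlapped, and the medians stood far apart.

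The receptor among these markers was Pgr, the progesterone receptor. It was at 146 CPM in pubertal members and 26.0 CPM in the other cells, and in the adult at 483 against 76.0 CPM. The log2 ratios were 2.44 (interval 2.28 to 2.70) and 2.65 (2.55 to 2.79). Read pairs were found in 47.6% of pubertal members and 58.6% of adult members, against 22.2% and 25.7% of basal class cells. A minority of cells carried most of it, since 1 adult member held 57.4% of the adult sum. Stc2, a secreted glycoprotein gene, was found in 72.0% and 72.4% of members and in 22.2% and 16.8% of basal cells. The log2 ratio of Stc2 was 2.11 at puberty and 2.23 in the adult, and those of Tbx3, a T-box factor of mammary development, were 1.74 and 2.55.

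Esr1 and Pgr transcripts did not mark the same members. At puberty both were read in 15 members, Esr1 alone in 25, Pgr alone in 24 and neither in 18. In the adult both were read in 6 members, Esr1 alone in 6, Pgr alone in 11 and neither in 6. Pubertal members with Pgr more often had read pairs of Cxcl15 (27 of 39, against 14 of 43 without) and Stc2 (35 of 39, against 24 of 43). Those with Esr1 more often had Myb (22 of 40, against 8 of 42) and Wnt4 (14 of 40, against 7 of 42). In the adult Wnt4 was read in 5 of 12 members with Esr1 and 7 of 17 without, and Myb in 4 of 12 and 3 of 17. Adult members with Pgr had Cxcl15 in 12 of 17 cells, against 5 of 12 without, and Stc2 in 13 of 17, against 8 of 12. These are counts in cells of 1 sample at equal depth and carry no test, and with few molecules per cell a transcript that was present can be missed.

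**Figure D2:**
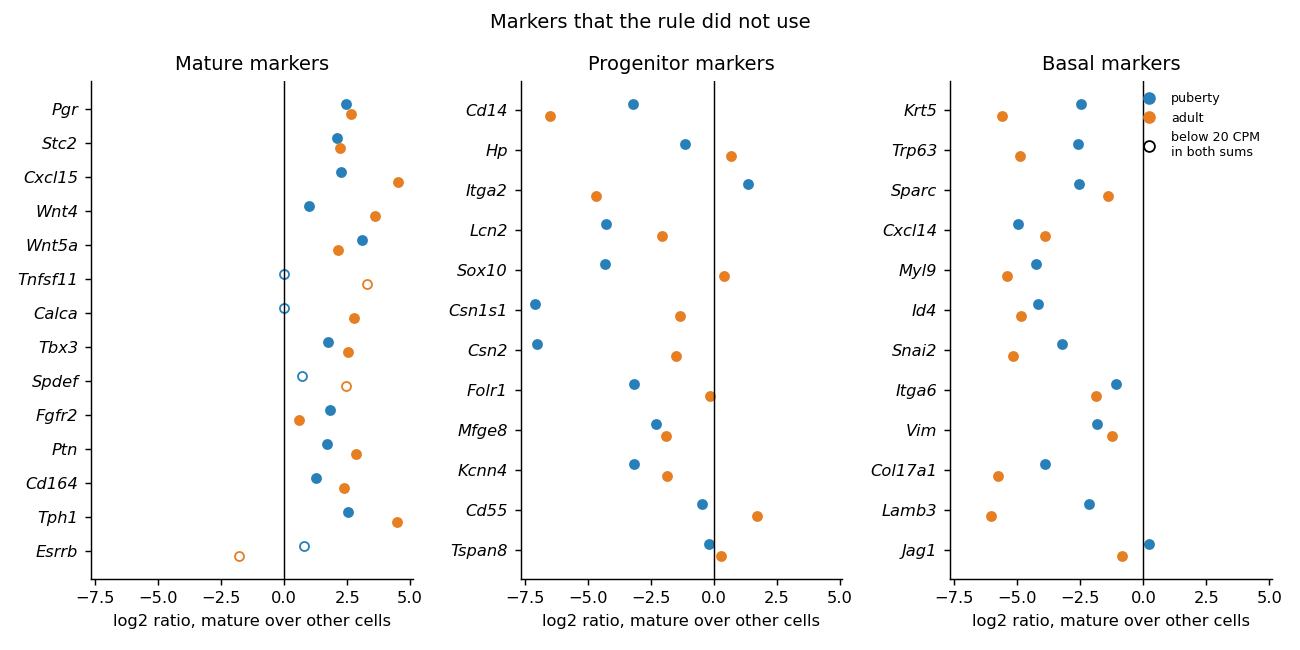
Log2 ratio of the summed level in members over that in the other retained cells (horizontal axis) for the 14 mature, 12 progenitor and 12 basal markers that the rule did not use, at puberty (blue) and in the adult (orange). Filled mature markers lie to the right of 0, from 0.57 to 4.52, and basal markers to the left apart from Jag1 at puberty, while Itga2 at puberty and Hp, Sox10, Cd55 and Tspan8 in the adult are the progenitor markers above 0. Open points are below 20 CPM in both sums.

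Several secreted signals were higher in members, and others were lower. Wnt5a, a ligand that acts outside the beta-catenin branch of Wnt signalling, was at 717 CPM in pubertal members and 83.4 CPM in the other cells, a log2 ratio of 3.09, and at 256 against 57.9 CPM in the adult, 2.13. Il33, a cytokine of barrier tissues, was at 2012 against 221 CPM at puberty, 3.18, with read pairs in 90.2% of members. In the adult Il33 was read in 3 of 29 members, and its log2 ratio was -4.54 among the cells numbered 48 to 188. Btc, which encodes the epidermal growth factor family ligand betacellulin, was at 66.1 against 6.63 CPM, and Ptn, the growth factor pleiotrophin, at 3180 against 977 CPM. Of the 15 signals in the list, 10 were considered at each stage, of which 4 were at least 2-fold higher and 1 lower in members at puberty, and 5 were higher and 4 lower in the adult. Fst, an activin antagonist, was among the lower genes in the adult at 76.6 against 473 CPM, and Pthlh was at 0.366 against 24.7 CPM at puberty. Of all genes, 20.8% were at least 2-fold higher and 22.5% lower at puberty, and 25.7% and 34.6% in the adult.

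Wnt4, a progesterone target in the gland, was at 29.0 against 14.0 CPM at puberty and 164 against 12.5 CPM in the adult, with read pairs in 21 of 82 and 12 of 29 members. At puberty the share of members with Wnt4 read pairs (25.6%) lay beside that of the basal class (24.1%), and was therefore not read as a difference between the classes. Tnfsf11, which encodes RANKL, had no read pair in 82 pubertal members. Taking 3 cells as the limit, this allows up to 3.66% of cells with a read pair and sets no limit on cells that express the gene. Tnfsf11 was read in 4 of 29 adult members. Those 4 all lay outside the set numbered 48 to 188. Calca, the calcitonin gene, likewise had no read pair in pubertal members and was read in 6 of 29 adult members at 196 CPM in sum. The serotonin synthesis gene Tph1 was read in 12.2% of pubertal members (interval 6.01 to 21.3%) and 69.0% of adult members (49.2 to 84.7%).

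Hormone receptor genes lay on both sides. Of 10 receptors outside the rule, 6 were considered at puberty, of which Pgr and Insr were at least 2-fold higher and 4 (Ghr, Nr3c1, Vdr and Igf1r) lower in members, beside 20.8% and 22.5% of all genes. Ghr, the growth hormone receptor, was at 9.39 against 52.8 CPM, Vdr, the vitamin D receptor, at 6.22 against 46.2 CPM, and Igf1r at 28.4 against 154 CPM. In the adult 8 were considered, with Pgr higher and Ghr, Vdr, Igf1r and Rara lower, beside 25.7% and 34.6% of all genes. The pubertal Insr value came to 59.4% from 1 cell. Among 10 genes of prolactin signalling, Ptpn1 was the member at least 2-fold higher at puberty, and Jak2 and Irs1 in the adult. The adult value of Jak2 came from cells outside the set numbered 48 to 188 (314 CPM, against 7.27 CPM within it), and 92.7% of the adult Irs1 sum lay in 1 cell.

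Among 14 genes listed as estrogen responsive, which include Pgr and Stc2, 10 were considered at puberty and 12 in the adult, and those 2 were the genes at least 2-fold higher in members at both stages. These 2 of 10 and 2 of 12 were at or below the share of all genes, 20.8% and 25.7%. Greb1, a gene induced by estrogen in many tissues, was read in 1 pubertal and 1 adult member, and Agr2 was at or below 1 CPM at each stage. Tfap2c, Myc, Igf1r and Ptges were at least 2-fold lower in members at both stages. Of 12 luminal structure genes, 6 were at least 2-fold higher and 1 lower in members at puberty, and 4 were higher and 2 lower in the adult, against the same shares of all genes higher and 22.5% and 34.6% lower. The luminal keratin genes Krt8, Krt18 and Krt19 were at 2194, 5288 and 2115 CPM in pubertal members and at 1244, 2879 and 956 CPM in the progenitor class. In the adult the order was the other way, at 2781, 6325 and 1657 CPM in members and 3703, 9572 and 2115 CPM in progenitors. Within the adult members Krt18 was at 13201 CPM in the set numbered 48 to 188 and 2123 CPM in the others. That set held 8 of the 12 adult progenitors and 11 of the 29 adult members. The adult keratin order and the make-up of the classes by set cannot be told apart.

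Of the luminal transcription factor genes, Myb stood apart, at 135 against 6.18 CPM at puberty and 78.6 against 2.03 CPM in the adult. It was read in 30 of 82 pubertal members, 7 of the 18 adult members outside the set and 0 of 11 within it, although 1 pubertal cell held 67.6% of the pubertal sum. Gata3, the luminal determinant, was at 644 against 426 CPM at puberty and 686 against 482 CPM in the adult (log2 ratios of 0.60 and 0.51), and was read in 97.6% and 96.6% of members. Of the 14 factors, 13 were considered at puberty, of which 3 were at least 2-fold higher (Elf3, Myb and Tbx3) and 3 lower (Klf5, Tfap2c and Cebpb). In the adult 2 of 12 were higher and 3 lower. These counts lay near or below the shares of all genes, 20.8% higher and 22.5% lower at puberty and 25.7% and 34.6% in the adult.

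Against the other retained cells, most of them basal, markers of the neighbouring lineages were for the most part low in members. Of 12 basal markers outside the rule, 11 were at least 2-fold lower at both stages, with median log2 ratios of -2.57 and -4.89, and Krt5, a basal keratin gene, was at 18.8 against 109 CPM at puberty and 3.79 against 235 CPM in the adult. Jag1, a Notch ligand, was the exception at 947 against 821 CPM at puberty and 359 against 646 CPM in the adult. Against the progenitor class alone, 7 basal markers were considered at each stage. At puberty 1 was at least 2-fold higher in members and 2 lower, with a median of -0.62. In the adult 4 were higher and 2 lower, with a median of 1.26. Of 12 progenitor markers, 9 were at least 2-fold lower at puberty with a median of -3.18, and 7 in the adult with a median of -1.44. Over all genes 22.5% were at least 2-fold lower at puberty and 34.6% in the adult. The smaller adult difference lay in the set numbered 48 to 188. In the adult cells outside it, 8 of 11 progenitor markers were at least 2-fold lower in members and 1 higher, with a median of -6.03. Within the set 5 of 12 summed levels were higher and 3 lower, with a median of 0.21. These sums do not describe the typical cell, since 1 member reached 64890 CPM over the 12 genes. Per cell, the 12 genes summed to a median of 3640 CPM in the other cells of the set and 450 CPM in its members. There Lcn2, an iron-sequestering secreted protein gene, was at 2565 CPM, against 0.556 CPM in the other adult members, and the casein gene Csn1s1 at 1948 against 40.0 CPM. Of the adult sums, 88.0% of Lcn2 and 96.1% of Csn1s1 lay in 1 cell each. Acta2, the smooth muscle actin gene of basal cells, was read in 11 of 11 members of that set at 139 CPM and in 6 of the other 18 at 4.44 CPM.

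High stromal levels were found in a few members. Of 7 fibroblast markers, 6 were considered at puberty and 7 in the adult, of which 0 were at least 2-fold higher in pubertal members and 6 in adult members, with median log2 ratios of -0.90 and 2.38. The summed fibroblast level per cell had a median of 0 CPM in pubertal and 10 CPM in adult members, with highest values of 32170 and 30880 CPM, and 3 members of each stage had 3 or more fibroblast genes at 50 CPM. Dcn, the proteoglycan decorin gene, reached 3304 CPM in the adult members outside the set numbered 48 to 188 and 40.0 CPM within it. Ly6a, a gene of the rule, is also known from stromal cells. The immune list, Ptprc, Cd74, Cd52, Laptm5 and Tyrobp, had no read pair in any member. Of 5 endothelial genes, 1 was at 0 in pubertal and 2 in adult members, and the highest summed level was 4510 CPM. Of 4 adipocyte genes, Adipoq and Plin1 were at 0 at both stages and Fabp4 reached 34840 CPM in 1 adult cell. The part of these transcripts in the adult values was not tested beyond leaving out the cells with 3 or more fibroblast genes, which left the adult share at 18.4% and the median ratio of the independent mature markers at 2.78.

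Beyond the lists, 721 genes were higher in members at both stages under the conditions for naming, and the 12 with the largest smaller ratio were Tlcd4, Gclc, Capsl, Tmprss2, Wfdc2, Kif5c, Phyh, AW112010, Arg1, Zfp938, Mboat1 and Sqor. Their log2 ratios ran from 2.37 to 4.27 at puberty and from 2.27 to 4.76 in the adult. Tlcd4, which encodes a membrane protein, was at 866 against 80.8 CPM at puberty and 1384 against 50.0 CPM in the adult, and was read in 82.9% and 86.2% of members but in 27.8% and 31.7% of basal cells. Wfdc2, a secreted protein gene of luminal epithelia, was at 1335 against 205 CPM and 1667 against 183 CPM, with read pairs in 93.9% and 86.2% of members. AW112010 was at 4239 against 749 CPM and 3052 against 239 CPM.

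Several of these genes encode enzymes. Gclc, the catalytic subunit of the enzyme that starts glutathione synthesis, was at 351 against 22.1 CPM at puberty and 362 against 37.9 CPM in the adult, where it was at 576 CPM outside the set numbered 48 to 188 and 12.7 CPM within it. Arg1, arginase, was at 111 against 11.9 CPM and 181 against 32.8 CPM, and Phyh, a peroxisomal hydroxylase gene, at 231 against 37.3 CPM and 930 against 84.1 CPM. Sqor, a mitochondrial sulfide oxidase gene, was at 113 against 18.7 CPM and 193 against 39.2 CPM. Arg1 was read in 36.6% of pubertal and 48.3% of adult members, so that the sums describe a part of the cells.

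In the other direction 1087 genes met the conditions, and the 8 leading ones were Tgfb1i1, Ccn2, Tenm2, Nexn, Actg2, Igfbp2, Krt15 and Rtn1. Tgfb1i1, a focal adhesion adaptor gene, was at 0.366 against 159 CPM at puberty and 2.07 against 130 CPM in the adult. Actg2 and Nexn, genes of smooth muscle actin and of an actin-binding protein, were at 10.6 against 253 CPM and 6.95 against 191 CPM at puberty. Krt15, a basal keratin gene, was read in 9.76% of pubertal and 13.8% of adult members. Among all genes, 451 were at least 2-fold higher in members at both stages and 700 at least 2-fold lower, of 6402 considered at both.

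The question of how members differed between puberty and adulthood was addressed with the 82 and 29 cells. Stage, sequencing run and the unlabelled source of the cells cannot be told apart. At the scale of all genes, 34.0% of the 7494 genes considered were at least 2-fold higher in pubertal members and 22.0% at least 2-fold higher in adult members, with a median log2 ratio of puberty over adult of 0.25. Trimmed-mean (TMM) scaling moved that median to -0.052. The ratios and 2-fold counts below were not recentred, and stand beside the median of 0.25 over all genes. At the same depth a median of 2975 genes was detected per pubertal member and 2180 per adult member, against 2717 and 2724 in the other cells. In adult members 1 cell more often held much of a gene's sum, and without the highest cell of each gene 486 rather than 1647 genes were at least 2-fold higher in the adult.

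Lineage markers outside the rule were for the most part higher in adult members, and the estrogen-responsive list was not. Of the 14 independent mature markers, 11 were considered, of which 7 were at least 2-fold higher in the adult and 2 at puberty, with a median log2 ratio of -1.37. Of the estrogen-responsive genes 10 were considered, 4 of them at least 2-fold higher at puberty and 4 in the adult, with a median of 0.015. Of the hormone receptors 4 were considered, 1 of them higher at puberty and 2 in the adult. Over all genes 34.0% were at least 2-fold higher at puberty and 22.0% in the adult. Prlr and Esr1 are genes of the rule, so their values here describe the members only. Prlr was at 3599 CPM in pubertal and 10173 CPM in adult members, a log2 ratio of -1.50, and was at 10338 and 10072 CPM in the 2 adult sets. The Prlr ratio in the other cells was 0.21, and the rule set which cells those were. Cxcl15, a chemokine gene, was at 160 and 1009 CPM (-2.65, and -0.38 in the other cells), Wnt4 at 29.0 and 164 CPM (-2.46, and 0.15), and Tph1 at 284 and 1933 CPM (-2.76, and -0.84). Pgr was at 146 and 483 CPM, with a ratio of -1.72 in members and -1.51 in the other cells. The Pgr ratio in members was -0.91 once each stage's top Pgr cell was left out, -0.29 against the adult members numbered 48 to 188 and -2.19 against the others. Esr1 was at 57.0 and 192 CPM, but at 13.6 CPM in the adult members numbered 48 to 188 and 301 CPM in the others, so the direction turned with the set. In summed read pairs Calca was at least 535-fold lower at puberty, taking 3 read pairs as the floor of the pubertal sum. This limit covers read counting only, not the sampling of cells. Calca had no read pair in the other pubertal cells either.

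The pubertal side held Fgfr2, Wnt5a, Il33 and Fst. Fgfr2, a receptor for fibroblast growth factors needed for ductal growth, was at 989 CPM in pubertal and 240 CPM in adult members, with per-cell medians of 580 and 50 CPM and read pairs in 95.1% and 62.1%. Wnt5a was at 717 and 256 CPM, with per-cell medians of 415 and 0 CPM. Il33 was at 2012 and 137 CPM and was read in 74 of 82 pubertal and 3 of 29 adult members. Its stage ratio was 3.86 in members and 3.55 in the other cells. Inhba, an activin subunit gene, was at 73.3 CPM in pubertal members with no read pair in adult ones. With 3 read pairs as the floor of the adult sum it was at least 70.8-fold higher, a limit that covers read counting only. In the other cells Inhba was at 60.6 and 0.163 CPM. Fst had a ratio of 3.03 in members and -0.09 in the other cells, with 88.3% of its adult sum in 1 cell.

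**Figure D3:**
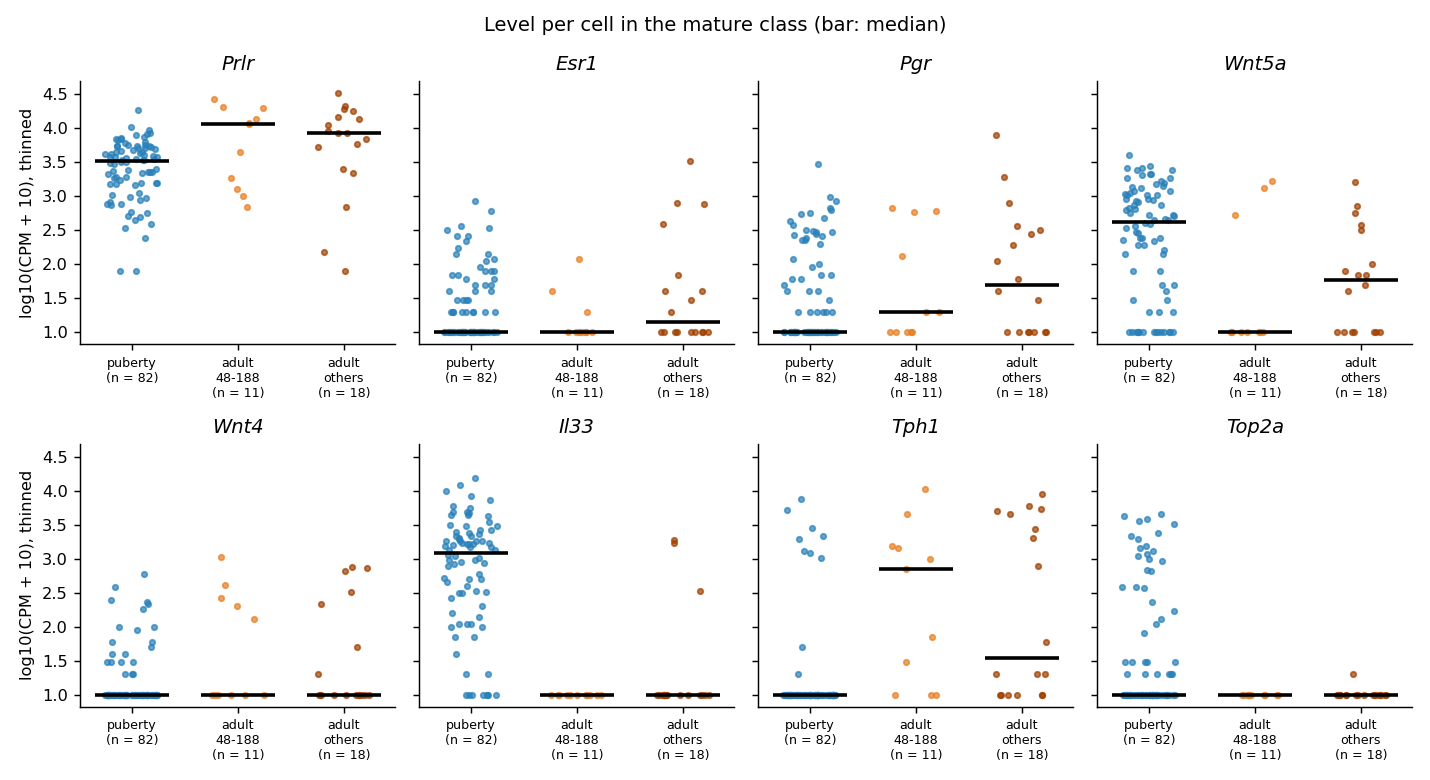
Level of 8 genes in each member, as log10 of thinned CPM plus 10 (vertical axis; 1.0 is a cell without a read pair), for 82 pubertal cells, 11 adult cells numbered 48 to 188 and 18 other adult cells, with the median as a bar. Il33 and Wnt5a points lie high at puberty, Prlr and Tph1 points reach higher in the adult, and no adult member has more than 10 CPM of Top2a.

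Cell cycle transcripts were higher in pubertal members. Of 15 cell cycle genes, 12 were considered, of which 11 were at least 2-fold higher in pubertal members and 0 lower, with a median log2 ratio of 3.94, against 0.67 in the other cells. Top2a, the topoisomerase of dividing cells, was at 460 CPM in pubertal members and 0.345 CPM in adult members, with read pairs in 36 of 82 and 1 of 29. Mki67 was at 175 and 1.72 CPM and was read in 26 of 82 and 2 of 29. Cdk1, the mitotic kinase gene, was at 179 CPM at puberty and had no read pair in the adult. With 3 read pairs as the floor of the adult sum, this is at least 173-fold. That limit covers read counting only, not the sampling of 29 adult cells.

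At least 3 of the 15 genes reached 50 CPM in 27 of 82 pubertal members (32.9%, interval 22.9 to 44.2%) and in 2 of 29 adult members (6.90%, 0.846 to 22.8%). After thinning the numbers were 26 and 2. Both adult cells lay outside the set numbered 48 to 188. In the other cells the shares were 22.5% (20 of 89) at puberty and 24.4% (30 of 123) in the adult, and in the basal class 25.9% and 26.7%. The adult sets differed in this too, with 27.1% (26 of 96) of the other cells numbered 48 to 188 and 14.8% (4 of 27) of the other cells outside the set, beside 0 of 11 and 2 of 18 members. Pgr, which the rule did not use, was read in 18 of the 36 pubertal members with Top2a and in 21 of the 46 without. Of the same 36 cells 22 had Mki67 and 23 had Cdk1, against 4 and 7 of the 46 without Top2a.

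The 10 genes named for the largest pubertal excess in members were Top2a, Cdk1, Cenpf, S100a14, Nol12, Blvra, Pwwp3b, Prim1, Ddx60 and Inhba, of 1651 that met the conditions. Besides Top2a and Cdk1, the division genes among them were Cenpf, a kinetochore gene, at 126 CPM and Prim1, a DNA primase subunit gene, at 80.0 CPM, neither with a read pair in adult members. S100a14, of the calcium-binding S100 family, was at 111 CPM at puberty and 0 in the adult, and read in 57.3% of pubertal members. Ddx60, an RNA helicase gene, was at 104 and 0.345 CPM, with a ratio of 4.42 in the other cells as well.

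The 10 genes named for the adult were Inpp5k, Scn7a, Fxyd2, Lpin1, Nrxn3, Tln1, Dnajb9, Arl4d, Slc16a1 and Gadd45g, of 277 that met the conditions. Fxyd2, a regulator of the sodium pump, was at 33.0 CPM in pubertal and 613 CPM in adult members, with 0.225 and 39.5 CPM in the other cells. Nrxn3, a neurexin gene, was at 34.4 and 419 CPM, with 10.8 and 6.50 CPM in the other cells. Gadd45g, a stress-inducible gene, was at 116 and 1133 CPM, with a ratio of -3.27 in members and -2.12 in the other cells. Of 14 genes of the response to cell dissociation, 2 were at least 2-fold higher at puberty and 3 in the adult, beside 34.0% and 22.0% of all genes. The median of the list was -0.45. That median was 0.31 against the adult members numbered 48 to 188, -0.57 against the other adult members, and -0.78 in the other cells. The part of this response in the stage values was not tested.

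**Figure D4:**
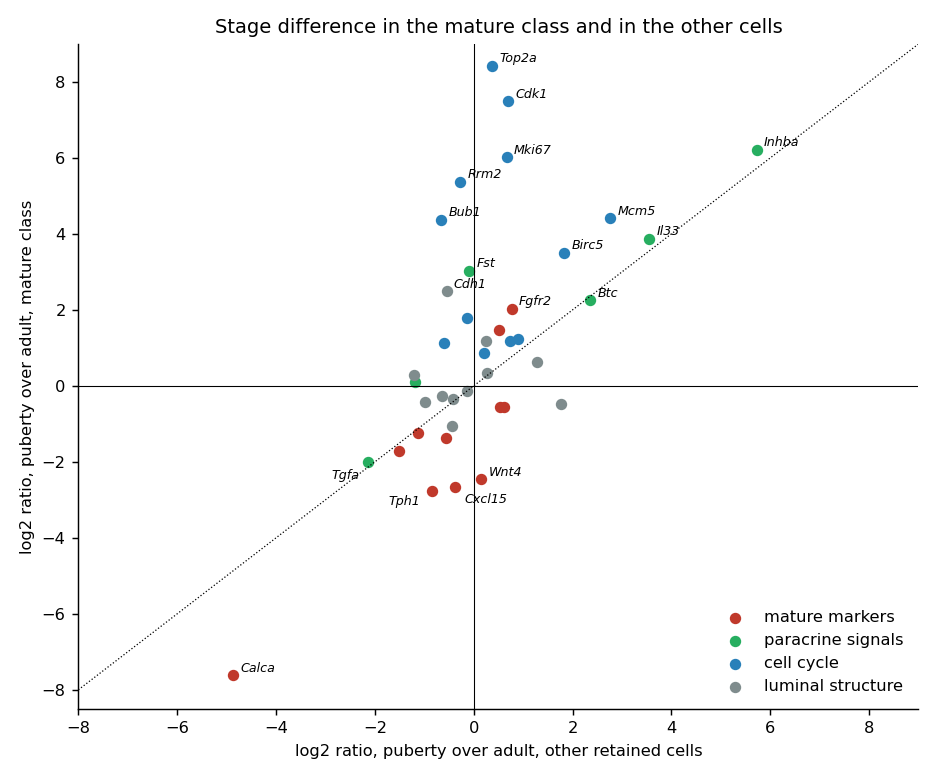
Log2 ratio of puberty over adult in members (vertical axis) against the same ratio in the other retained cells (horizontal axis) for genes of 4 lists at 20 CPM or more in members of 1 stage, with genes beyond 2 on either axis named. Il33, Inhba and Btc lie near the dotted line of equal ratios, whereas Top2a, Cdk1, Mki67 and Fst lie above it near 0 on the horizontal axis, and Wnt4, Cxcl15 and Tph1 lie below 0 on the vertical axis.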

How the data were processed

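Counts of read pairs per gene were deposited by the authors in 1 table per cell, unfiltered and unnormalised, after assignment to genes with featureCounts on the mm10 build (submitters' processing notes). Versions and the use of strand are not given in the sources used here, so overlapping, antisense and near-identical genes are uncertain. The library protocol had no molecular identifiers. Of 27179 identifiers, 25275 matched RefSeq genes of GRCm38.p6, and the unmatched ones held 1.84% of read pairs. After 15 mitochondrial and 124 ribosomal protein genes were dropped, 25136 remained. Cells with at least 100000 read pairs and 1500 genes were retained. The authors' combined table was not used.

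The rule was applied to unthinned CPM. Retained cells were thinned to 100000 read pairs (seed 1) and summed by class and stage. Log2 ratios used a prior of 1 CPM and genes at 20 CPM or more in 1 of the 2 sums. Named genes were read in at least 25% of the cells of the higher class at both stages, or of the higher stage, with no cell holding 50% or more of the sum. Those for a class kept their direction at both stages and were outside the 24 rule genes. Those for a stage kept their direction against both adult sets. No test was run, since each stage is 1 sample. Intervals are exact Clopper-Pearson for shares of cells and exact conditional binomial for ratios of summed counts. TMM factors came from edgeR 4.0.16 in R 4.3.3, and the rest was computed in Python 3.11.15 with numpy 2.4.6 and scipy 1.17.1. The scripts were tested on simulated data. Members, lists and the adult sets were chosen with earlier results of these data known.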

Additional observations from a re-analysis of the deposited data

Results flagged for a closer look

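Over all 6402 genes considered at both stages, 307 were at least 2-fold higher in members at puberty and lower in the adult. Another 205 went the other way. Of 168 listed and named genes considered at both stages, 11 were opposite in this sense, which was not a larger share than over all genes. The differences between the stages were not tested. On the pubertal side, 4 of 6 were cell division genes: the ratio at puberty minus that in the adult was 8.06 for Top2a (2.23 and -5.82), 5.34 for Mki67 (1.47 and -3.87), 5.02 for Bub1 (1.97 and -3.05) and 7.50 for Prim1 (1.59 and -5.91). Blvra differed by 6.39 (1.12 and -5.27) and Itga2 by 6.05 (1.37 and -4.68). Prim1, Blvra and Itga2 had no read pair and Top2a had 1 in adult members, so these ratios depend on the prior of 1 CPM. On the adult side Inpp5k differed by -7.30 (-1.68 and 5.62) and Irs1 by -4.85 (-3.01 and 1.84). The stromal genes Dcn and Dpt differed by -3.37 and -4.06. Emcn, an endothelial gene, differed by -7.55, and the adult Emcn read pairs of members all lay in 1 cell.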

How the results depend on the processing

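Under 19 alternative settings, 2 of them chosen after seeing the data, the share of members moved beyond its counting interval without the Ly6 genes in the rule (38.0% at puberty, 11.2% in the adult) and with the adult sets alone (10.3% for cells 48 to 188, 40.0% for the others). The median ratio of the independent mature markers stayed above 0 and moved with unthinned sums at puberty (2.56) and against the progenitor class at puberty (6.35). Over all alternatives it ran from 1.68 to 6.35 at puberty and from 2.33 to 4.40 in the adult, where the highest value was again against the progenitor class. Counts of genes at least 2-fold higher in members moved against the progenitor class (3114 at puberty, 2998 in the adult), and without the highest cell of each gene the adult count was 729. With a filter of 50 CPM the count higher at puberty was 886, lower at puberty 967, lower in the adult 1387 and higher in pubertal than adult members 1307. With 5 CPM these were 2525, 2826, 4248 and 4216. The median stage ratio of all genes was -0.052 with TMM factors, 1.04 without the highest cell of each gene, 0.075 and 0.48 with filters of 50 and 5 CPM, 0.84 and 0.43 with adult cells 48 to 188 or the others alone, and 0.32 without mixed members. Without the highest cell the count higher in the adult was 486. With TMM factors the stage counts were 2155 higher at puberty and 2017 in the adult.

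Of 3840 values of 99 genes under alternatives, 21 changed sign from a main ratio of at least 2-fold. A further 384 moved by 2-fold or more. Sign changes of smaller main ratios were not counted. With a rule level of 20 CPM, Ocln went to -4.21 in the adult and to 4.34 between the stages, and between the stages to 1.19 without its highest cell and 4.37 against the other adult cells alone. With at least 4 genes Ddx60 at puberty was -0.055. Irs1 in the adult was -1.78 under stricter coverage, -1.39 without its highest cell, -1.58 in cells 48 to 188 and -1.46 without fibroblast-marked cells. In cells 48 to 188 Il33 was -4.54 and Jak2 -1.35 against the other cells, and the stage ratios of Prom1, Esr1 and Jak2 were 5.70, 1.99 and 2.78. Prom1 between the stages was 0.068 without its highest cell, and Ccnb2 -0.041 with unthinned sums. Against the progenitor class in the adult Scn7a was 0.38, Fst 0.20, Pcna 0.39 and Krt19 -0.35, and without mixed members Cldn4 in the adult was -0.75. The causes were not tested. No paired analysis was possible because the labels name no replicates. With 29 adult members, a transcript in a few cells can be missed.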
